A study of Homo sapiens with 2 samples.

Results

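The early response genes described here were followed between the libraries of a silencing experiment on THAP7-AS1, a long noncoding RNA gene. They were taken by name from 4 groups: the IER genes IER2, IER3 and IER5, the zinc finger factor gene EGR1 with the phosphatase gene DUSP1, the ZFP36 family (ZFP36, ZFP36L1 and ZFP36L2), and the antiproliferative genes BTG1 and BTG2. All 10 of 10 were found among the 12918 genes of the table. The cells were MDA-MB-231, a long-established human line of triple-negative breast cancer. The silencer culture received a THAP7-AS1 Smart Silencer, a purchased reagent that combines siRNAs with antisense oligonucleotides, and the control culture received si-NC, a negative control. Both were grown in L15 medium with serum and sampled at 48 h, and each gave 1 library. The deposited columns are headed si-nc and si-v. By elimination si-v was taken as the silencer library, and it keeps the name si-v below. None of the 3 annotated THAP7-AS1 transcripts was listed (0 of 3), so the silencing could not be checked, and each direction rests on that assignment.

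Early response genes are transcribed within minutes of a growth factor, stress or cytokine signal, without the need for new protein. Serum response factor, the ternary complex factors and CREB carry the signal from the MAP kinases to their promoters. Their messenger RNAs are typically short-lived, because AU-rich elements in the 3′ untranslated region recruit proteins that bring in the CCR4-NOT deadenylase. The ZFP36 proteins are such recruiters, and the BTG proteins bind the deadenylase through its catalytic subunits, so the group holds both unstable messages and genes of the decay machinery. The measurements here are levels of RNA; no rate of decay was measured.

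The AU-rich elements of these genes are shown because they are the sequence feature behind the group's name. The sites are from the most abundant listed transcript of each gene in GENCODE release 29, written as DNA. Capitals mark the heptamer TATTTAT, which holds the pentamer ATTTA bound by the ZFP36 family, except in EGR1, where capitals mark the pentamer. Where a gene has several, the stretch with the most copies that lies nearest the stop codon is given.
IER3: tcctaattaaTATTTATatgTATTTAT
IER5: tgtcttccttTATTTATTTATTTATtt
DUSP1: ggctggtcctTATTTATttaacttcac
ZFP36: atgggcccttTATTTATgacgacttta
ZFP36L1: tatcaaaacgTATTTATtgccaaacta
ZFP36L2: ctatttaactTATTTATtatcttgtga
BTG1: atagatttctTATTTATctgaaggtat
BTG2: aatgaagagcTATTTATatatattatt
EGR1: gaaaatgtaaATTTAtaaatatattca

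IER5 carried 10 ATTTA pentamers in a 3′ untranslated region of 3013 bases, and the 3 overlapping heptamers printed above lie near its end. IER3 had the highest density of the 10 genes, 6 pentamers in 737 bases or 8.14 per kilobase. Only 2.54% of the 10454 genes with a usable 3′ untranslated region were as dense. ZFP36 followed with 7.01 and DUSP1 with 5.95 pentamers per kilobase. ZFP36L1 held 8 pentamers, ZFP36L2 and BTG1 5 each, BTG2 2 and EGR1 1. IER2 was the exception, with 0 pentamers in the 1050 bases of its listed transcript. The heptamer was present in 8 of the 10 genes, and in 31.1% of all genes with a usable 3′ untranslated region.

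The promoters of IER2, DUSP1 and EGR1 are printed next as examples of the signal inputs known for this group. The letters are RefSeq sequence on GRCh38.p14, from 180 bases before the annotated start to the last base before it. Capitals mark the CArG box (the serum response factor motif), the CREB core TGACG on either strand, the full palindrome TGACGTCA that contains it, and TATAAA.
IER2 (chr19:13150231-13150410, plus strand): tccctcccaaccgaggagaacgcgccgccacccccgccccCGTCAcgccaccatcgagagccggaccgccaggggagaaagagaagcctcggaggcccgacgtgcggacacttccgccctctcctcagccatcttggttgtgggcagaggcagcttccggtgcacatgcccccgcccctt
DUSP1 (chr5:172771196-172771375, minus strand): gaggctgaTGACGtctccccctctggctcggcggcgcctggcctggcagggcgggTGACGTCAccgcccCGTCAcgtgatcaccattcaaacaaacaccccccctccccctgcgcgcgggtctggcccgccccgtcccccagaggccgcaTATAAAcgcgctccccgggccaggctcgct
EGR1 (chr5:138465299-138465478, plus strand): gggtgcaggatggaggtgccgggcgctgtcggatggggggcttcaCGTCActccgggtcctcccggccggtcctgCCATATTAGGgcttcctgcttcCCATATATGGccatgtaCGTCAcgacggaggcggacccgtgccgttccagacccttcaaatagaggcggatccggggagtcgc

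Promoter windows from 250 bases before to 50 bases after the start were found for 8 of the 10 genes and for 8875 genes in all. EGR1 held 2 CArG boxes, starting 105 and 83 bases before the start, and was the only gene of the 8 with any; 1.62% of all genes had one. The palindrome TGACGTCA stood 125 bases before the start of DUSP1 and 52 bases before one of the starts of ZFP36L1, against 4.02% of all genes. The shorter TGACG was in 6 of the 8 (IER2, EGR1, DUSP1, ZFP36L1, BTG1 and BTG2) and in 41.7% of all genes. TATAAA was in DUSP1 and BTG1, and in 7.83% of all genes. IER5 and ZFP36 held none of these 4 motifs in the window. Also searched was CCGGAA, which was in IER2 and IER5 and in 36.9% of all genes. GGGCGG was in 5 of the 8 (IER2, DUSP1, ZFP36, BTG1 and BTG2) and in 79.1% of all genes. All motifs were searched on both strands. A match of letters is no record of binding, and the files hold none.

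Expression values were read as FPKM (fragments divided by transcript length and by the total mapped) and summed over the listed transcripts of a gene. The listed transcripts held about 7850000 fragments (control) and 8320000 (si-v). The log2 ratio is that of si-v + 1 over control + 1 FPKM, so it understates differences of low genes. Of the 12918 genes, 11046 reached 1 FPKM in at least 1 library, and their ratios had a median of log2 0.00 and an SD of 0.49 across genes. Higher by 1.5-fold were 1085 and lower 984, a split that turned to 874 and 1193 when the libraries were scaled without the mitochondrially encoded genes, whose share of all FPKM was 12.0% (control) and 6.93% (si-v). Of 8 markers expected in the line 7 were listed, at 55.3 to 739 FPKM in the control and 80.6 to 463 in the si-v library. Of 10 markers of blood, endothelial and fibroblast cells 3 were listed, the highest at 2.98 FPKM. Of 5 markers known to be low or absent in the line 4 were listed, the highest being ERBB2 at 4.65 and 17.4 FPKM.

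With 1 library per group there was no spread between cultures and no test. In RNA from a whole culture, a difference in every cell and one in some of the cells cannot be told apart. The intervals given for ratios are exact Clopper-Pearson intervals at 95% on approximate fragments, without the pseudocount. Those for levels are exact Poisson intervals at 95% on the same fragments. Both kinds cover counting error within these libraries, and neither the division of reads among transcripts nor variation between cultures. All 10 genes passed the filter of 1 FPKM, EGR1 and BTG2 only through the si-v library.

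IER2, IER3, IER5 and DUSP1 were 1.86-fold to 2.18-fold as high in the si-v library as in the control, and the other 6 genes differed less. At 1.5-fold 4 of 10 genes were higher, where 9.82% of all genes were, and 0 of 10 were lower, where 8.91% of all genes were. At 2-fold 2 of 10 were higher, IER2 and DUSP1, against 2.37% of all genes. No gene of the 10 was lower by that much (0 of 10), against 2.49%. In either direction of any size, 8 were higher and 2 lower, where 50.4% of all genes were higher and 49.6% lower. The median log2 ratio was 0.34 over the 10. Over the 8 that reached the filter in both libraries it was 0.63, with 6 higher and 2 lower.

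**Figure D1:**
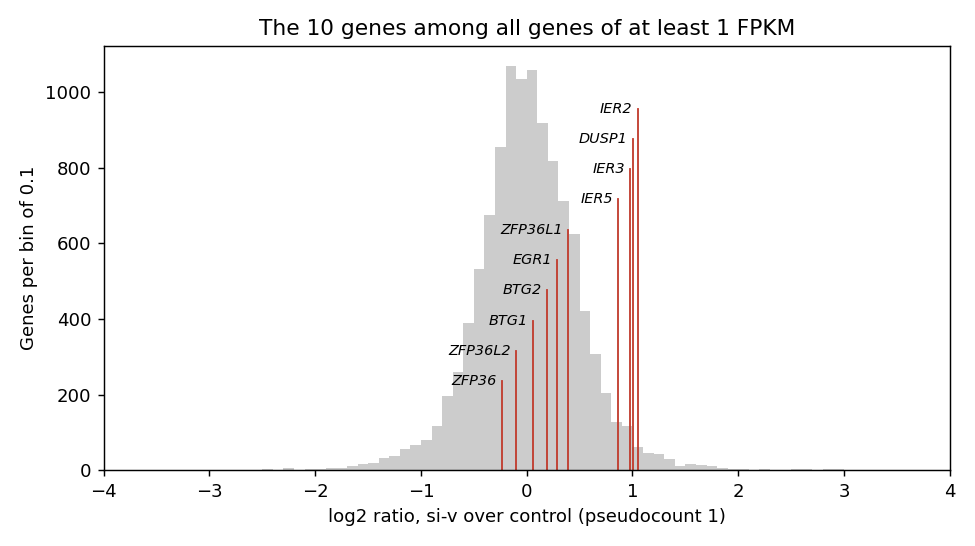
Histogram of the log2 ratio (si-v over control, pseudocount of 1 FPKM, x axis) of the 11046 genes of at least 1 FPKM in at least 1 library, as genes per bin of 0.1 (y axis), with a red line at the ratio of each of the 10 genes; the heights of the red lines only separate the names. IER5, IER3, DUSP1 and IER2 lie in the right tail between 0.87 and 1.05, and the other 6 within the bulk, between -0.23 and 0.39.

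The IER genes encode small nuclear or membrane-associated proteins induced by growth factors and stress. IER2, a nuclear regulator of transcription, stood at 9.64 FPKM (control) and 21.0 (si-v), on about 311 and 734 fragments. The log2 ratio was 1.05 (interval 0.93 to 1.32), and 2.06% of all genes had a ratio at least as high. Only 1 of the 3 annotated IER2 transcripts was listed, the single-exon form of 2934 bases. This is also the one gene of the 10 without an ATTTA pentamer in the 3′ untranslated region of its listed transcript.

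IER3, also known as IEX-1, is a regulator of apoptosis induced by NF-kB and MAP kinase signalling. It was the most abundant of the 10 in both libraries, at 62.0 FPKM (control) and 123 (si-v). The log2 ratio was 0.98 with an interval of 0.87 to 1.10, just under 2-fold. Both annotated transcripts were listed and both were higher in the si-v library. The spliced IER3-201 stood at 43.1 and 92.4 FPKM, and the single-exon IER3-202, at 18.9 and 30.8. The share of IER3-202 was 30.5% (control) and 25.0% (si-v).

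IER5, a nuclear protein that acts with heat shock factor HSF1, stood at 22.5 FPKM (control) and 41.8 (si-v). It rests on about 1035 and 2082 fragments of its single transcript, the most of any of these genes with 1 listed transcript. The log2 ratio was 0.87, with a fold of 1.86 and its interval of 1.73 to 2.01, and 3.85% of all genes had a ratio at least as high. The intervals of the 3 IER genes overlap, and an order among their ratios was not tested. No annotated gene overlaps IER5, unlike IER2 and IER3, which each have an annotated antisense gene.

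**Figure D2:**
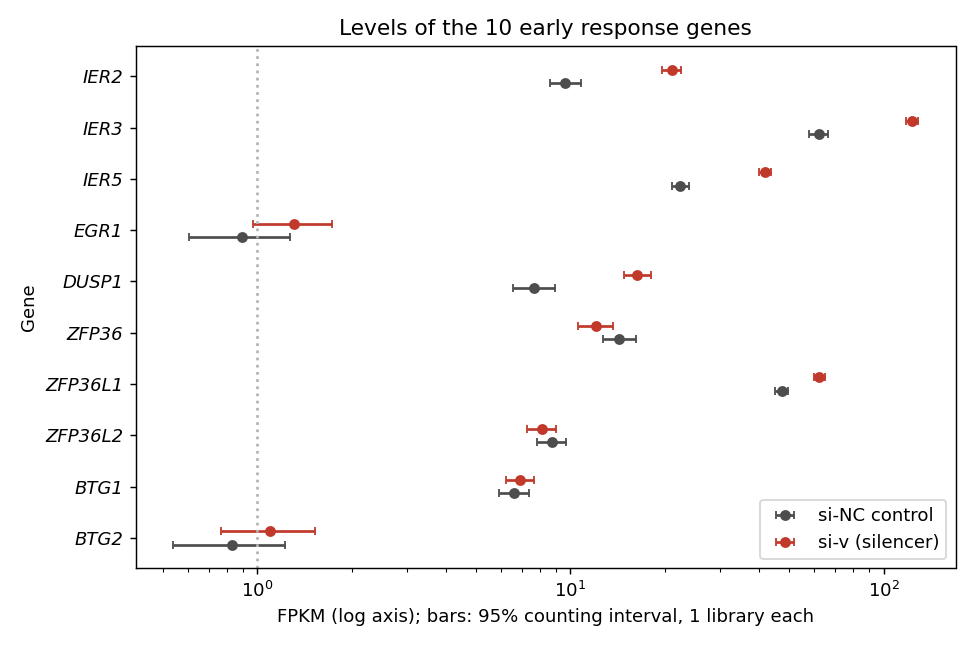
FPKM on a log axis of the 10 genes (rows) in the control (grey) and the si-v library (red), 1 library each, with bars for the 95% counting interval; the dotted line marks 1 FPKM. The bars of the libraries lie clear of each other for IER2, IER3, IER5, DUSP1 and ZFP36L1, and overlap for the other 5.

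EGR1, a serum-induced zinc finger transcription factor whose promoter holds the CArG boxes printed above, was low in both libraries. It stood at 0.893 FPKM (control) and 1.31 (si-v), on about 31 and 49 fragments. The log2 ratio was 0.29 with the pseudocount. Without it the fold was 1.47 with an interval of 0.914 to 2.37, so both no difference and a difference as large as that of DUSP1 lie within counting error. Of the filtered genes 2.39% stood at or below its level in the control. The filter itself keeps that share small, because it drops genes under 1 FPKM in both libraries.

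DUSP1, the nuclear phosphatase that removes the activating phosphates of p38, JNK and ERK, was higher in the si-v library. It stood at 7.65 FPKM (control) and 16.4 (si-v), on about 170 and 393 fragments of its single annotated transcript. The log2 ratio was 1.01 with an interval of 0.83 to 1.36, and 2.34% of all genes had a ratio at least as high. Its promoter is the one of the 3 printed with both the TGACGTCA palindrome and TATAAA. An annotated antisense gene overlaps DUSP1. The strand setting of the authors' counting is not known here, so for IER2, IER3, DUSP1 and BTG1, the 4 genes with an opposite-strand neighbour, reads of the partner cannot be told apart. BTG1 also overlaps the noncoding gene LINC01619 on its own strand.

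The ZFP36 genes encode the CCCH zinc finger proteins that bind AU-rich elements and lead the message to deadenylation. Their messages carry such elements themselves, as the sites above show. Of the 3 genes ZFP36L1 had a ratio above 0, and ZFP36 and ZFP36L2 had ratios below 0. ZFP36L1 was by far the most abundant, at 47.2 FPKM (control) and 62.3 (si-v), with a log2 ratio of 0.39 (interval 0.36 to 0.54). That is under 1.5-fold, and 19.1% of all genes had a ratio at least as high. ZFP36, also called tristetraprolin, was at 14.3 FPKM (control) and 12.0 (si-v), with a log2 ratio of -0.23 (interval -0.54 to -0.03). ZFP36L2 stood at 8.73 and 8.10 FPKM, a log2 ratio of -0.10 whose interval of -0.32 to 0.11 includes no difference. The intervals of ZFP36L1 and ZFP36 do not overlap, so at the level of counting their ratios differ in these libraries. In the control ZFP36L1 made up most of the family's summed FPKM, and the same held in the si-v library.

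Within ZFP36L1 the listed transcripts differed. The main form, ZFP36L1-202, stood at 42.1 FPKM (control) and 60.6 (si-v), which is 89.1% and 97.1% of the gene. ZFP36L1-204 stood at 2.36 FPKM (control) and 0.191 (si-v), about 80 and 7 fragments. ZFP36L1-206 stood at 1.54 and 0.0568 FPKM, on about 12 fragments in the control. ZFP36L1-201 lay the other way, at 0.779 and 1.54 FPKM. Read from the main form alone, the log2 ratio of ZFP36L1 was 0.52 in place of 0.39. These transcripts share most of their sequence, and the share assigned to each rests on the authors' division of reads. For ZFP36 the main form ZFP36-203 stood at 13.4 and 10.8 FPKM, and ZFP36-201 at 0.404 and 1.27 on about 3 and 10 fragments.

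**Figure D3:**
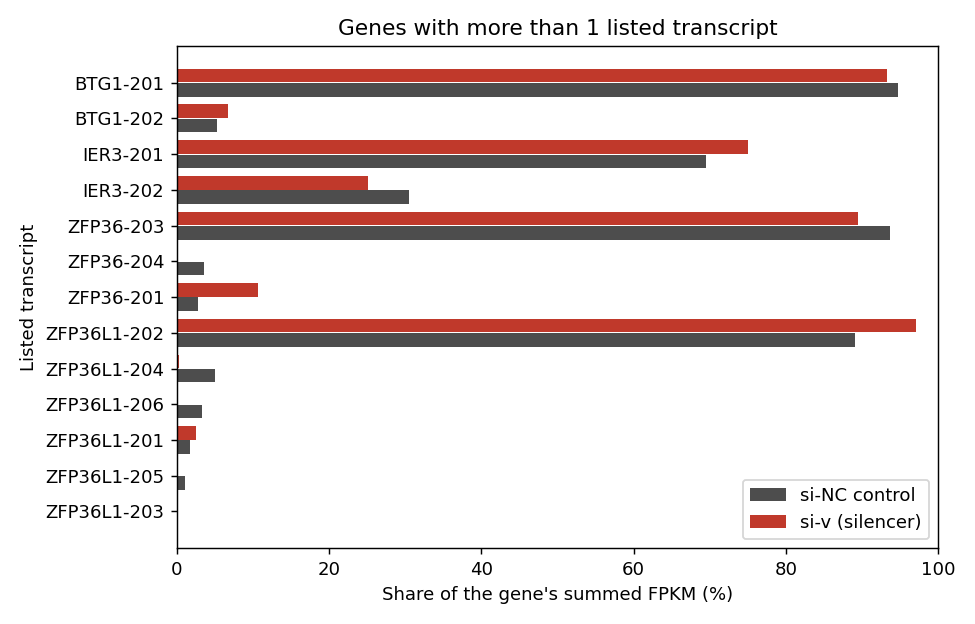
Share of the gene's summed FPKM (x axis, %) taken by each listed transcript (rows) of the 4 genes with more than 1, in the control (grey) and the si-v library (red). The main form of each gene is the same in both libraries; ZFP36L1-202 goes from 89.1% to 97.1% and IER3-201 from 69.5% to 75.0%.

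The BTG genes encode antiproliferative proteins that bind the deadenylase subunits CNOT7 and CNOT8. BTG1 stood at 6.60 FPKM (control) and 6.91 (si-v), on about 324 and 362 fragments. Its log2 ratio of 0.06 had an interval of -0.17 to 0.27, which includes no difference and stays under 1.5-fold on both sides. The sign of this ratio turned to -0.00 when the libraries were scaled without the mitochondrial genes. BTG2, a p53 target gene, was the lowest of the 10, at 0.833 FPKM (control) and 1.10 (si-v). Its log2 ratio was 0.20. On about 25 and 35 fragments the interval ran from -0.41 to 1.17, too wide to place BTG2 with BTG1 or with the IER genes.

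The order of the levels, which FPKM makes comparable per length, was kept at the top and the bottom. In both libraries IER3 was the highest and ZFP36L1 the next, followed by IER5, with EGR1 and BTG2 the lowest. Between them, IER2 and DUSP1 were at rank 5 and 7 in the control and at rank 4 and 5, above ZFP36, in the si-v library. In the control the counting intervals of the levels overlapped between the neighbours IER2 and ZFP36L2, ZFP36L2 and DUSP1, and DUSP1 and BTG1. In the si-v library only ZFP36L2 and BTG1 overlapped among the genes above 5 FPKM. EGR1 and BTG2 overlapped in both. Summed over the 10 genes the level was 180 FPKM (control) and 294 (si-v).

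**Figure D4:**
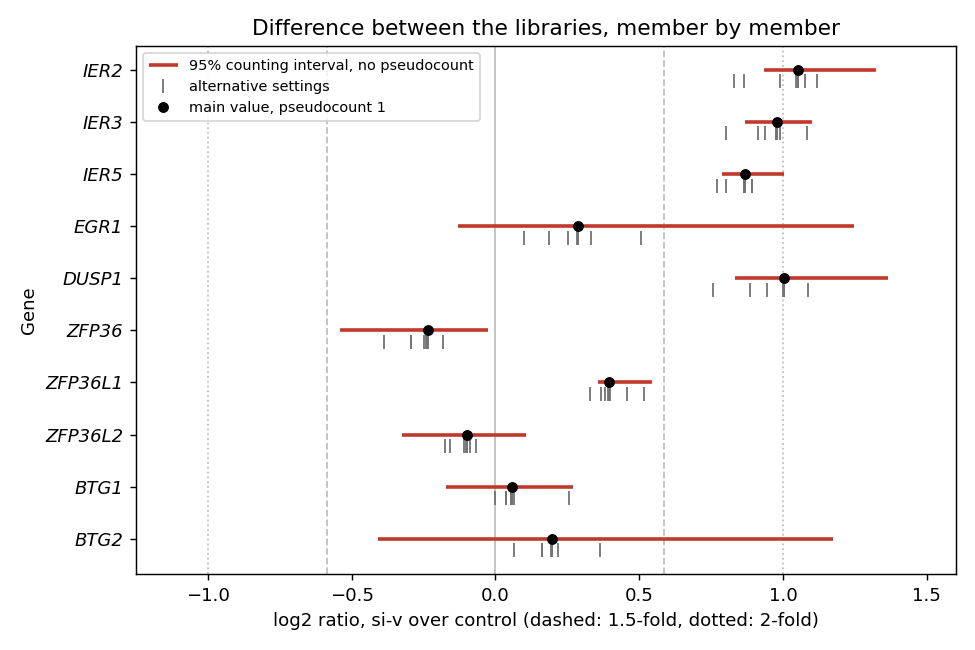
Log2 ratio (si-v over control, x axis) of each of the 10 genes (rows): the main value with a pseudocount of 1 FPKM (black), the 95% counting interval without the pseudocount (red) and the values under alternative settings (grey ticks); dashed lines mark 1.5-fold and dotted lines 2-fold. The ticks of IER2, IER3, IER5 and DUSP1 all lie beyond 1.5-fold, with the lowest at 0.76, and none of the other 6 genes has a tick there.

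IER2, IER3, IER5 and DUSP1 stayed above 1.5-fold under all 9 alternatives of pseudocount, filter, scaling, transcript choice and trend. The 2-fold call of IER2 and DUSP1 was less firm. It was lost when the trend of the ratio with GC content and length was removed, where the log2 ratio of IER2 was 0.87, that of DUSP1 0.89 and that of IER3 0.80. Without the mitochondrial genes in the scaling IER2 was at 0.99 and DUSP1 at 0.94, and with a pseudocount of 5 FPKM at 0.83 and 0.76. With the most abundant transcript only IER3 also passed 2-fold, at 1.08, which made 3 of 10 where 6.33% of all genes passed.

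Genes with the AU-rich element were found among both the larger and the smaller differences. Among the 8 genes with the heptamer, log2 ratios ran from -0.23 for ZFP36 to 1.01 for DUSP1, with a median of 0.29. The 2 genes without it were EGR1 at 0.29 and IER2 at 1.05. Across the table, genes with the heptamer had a median log2 ratio of -0.11 (3254 genes), genes with the pentamer alone -0.02 (3859 genes), and genes with neither 0.14 (3341 genes). Of the heptamer genes 5.87% were 1.5-fold higher and 10.8% lower, against 14.5% and 6.88% of the genes without a pentamer. After the trend with GC content and length was removed, the medians were -0.01, 0.00 and 0.03. The median length of the 3′ untranslated region was 2301 bases with the heptamer and 315 without a pentamer, with 37.6% and 51.5% GC. Of the 6 genes with 3 or 4 heptamers, IER3, IER5, DUSP1 and ZFP36L1 had ratios above 0, and ZFP36 and ZFP36L2 had ratios below 0.

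**Figure D5:**
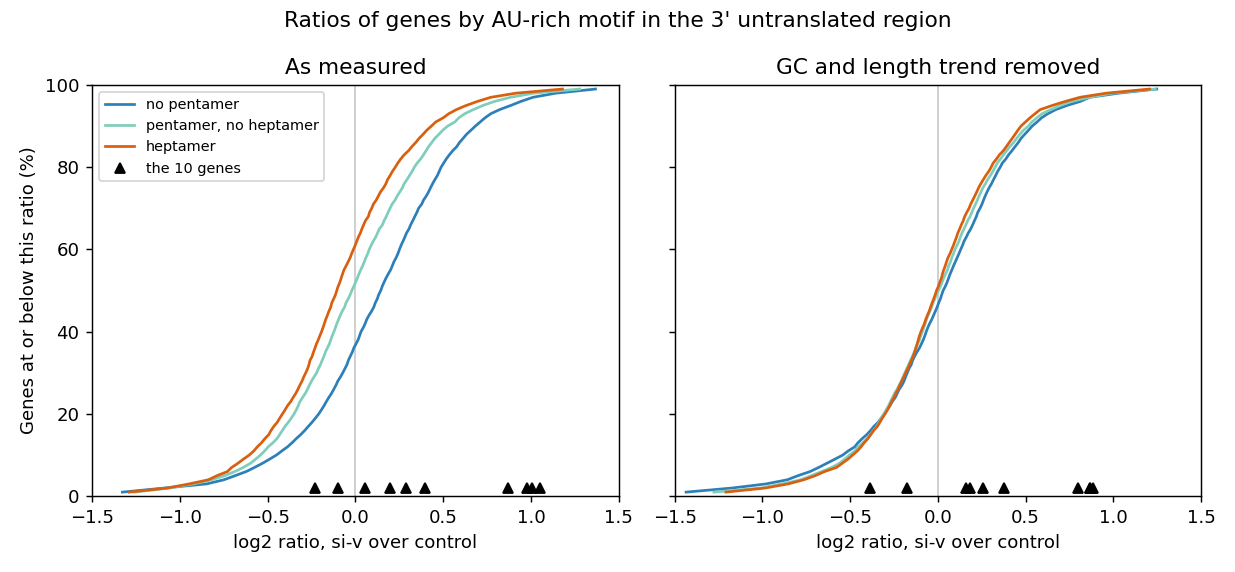
Percent of genes at or below a given log2 ratio (si-v over control), for genes without an ATTTA pentamer in the 3′ untranslated region (blue), with the pentamer but no TATTTAT heptamer (light green) and with the heptamer (orange), as measured (left) and with the trend in GC content and length removed (right); triangles mark the ratios of the 10 genes. The median of the heptamer class is -0.11 on the left and -0.01 on the right, and the curves nearly coincide on the right.

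Of 15 family relatives of these genes 11 were listed and 9 passed the filter; 6 were higher and 3 lower, with 0 past 1.5-fold, where 9.82% of all genes were higher and 8.91% lower by as much, so a count of 0 among 9 is near the background. Their median log2 ratio of 0.27 was 0.14 with a filter of 5 FPKM and 0.11 with the most abundant transcript only. IER5L stood at 3.68 FPKM (control) and 5.77 (si-v), log2 0.53, the highest of the group. Among the phosphatase genes, DUSP5 stood at 7.83 and 10.9 (0.43), DUSP16 at 2.49 and 3.84 (0.47), DUSP10 at 8.55 and 8.67 (0.02), DUSP4 at 12.3 and 11.8 (-0.06) and DUSP6 at 11.5 and 8.97 (-0.33). DUSP6 is the cytoplasmic phosphatase of ERK and lay opposite to DUSP1. In the BTG/TOB family, TOB1 stood at 5.20 and 6.46 (0.27), TOB2 at 10.6 and 13.0 (0.27) and BTG3 at 19.7 and 14.98 (-0.37).

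Of 50 other early response genes 47 were listed and 45 passed the filter. By 1.5-fold 11 were higher and 2 lower, where 9.82% and 8.91% of all genes were. By 2-fold 4 were higher and 0 lower, where 2.37% and 2.49% of all genes were, so the 0 lower is near the background. In all 31 were higher and 14 lower, where 50.4% and 49.6% of all genes were. Their median log2 ratio was 0.19, against 0.00 over all genes. The highest were the stress factor gene ATF3 (1.58) and PPP1R15A, which encodes the GADD34 subunit of the eIF2alpha phosphatase, at 78.9 FPKM (control) and 216 (si-v), log2 1.44. The lowest were the AP-1 subunit gene FOSL1 (-0.67) and the cyclin L gene CCNL1, at 14.8 and 8.99 (-0.66). The median of this list was 0.081 once the trend with GC content and length was taken out.

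The genes that carry signals to these promoters lay near the shares of all genes. Of 19 serum response and CREB inputs, 8 were higher and 11 lower, where 50.4% and 49.6% of all genes were. By 1.5-fold 2 were higher and 2 lower, against 9.82% and 8.91% of all genes. The median log2 ratio was -0.10. The p38-activated kinase gene MAPKAPK3 stood at 11.2 FPKM (control) and 18.6 (si-v), log2 0.69, and the ribosomal S6 kinase gene RPS6KA1 at 9.32 and 15.1 (0.64). The ternary complex factor gene ELK3 stood at 43.1 and 21.6 (-0.97) and the SRF coactivator gene MRTFB at 4.47 and 2.42 (-0.68). SRF itself, at 23.1 and 34.8 (0.57), and MAPKAPK2, whose product phosphorylates ZFP36, at 51.8 and 60.1 (0.21), were singled out after their values were seen.

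The machinery that the ZFP36 and BTG proteins recruit was slightly lower in the median. For the counts that follow, 50.4% of all genes were higher and 49.6% lower. By 1.5-fold 9.82% of all genes were higher and 8.91% lower. Of 15 genes for deadenylase complexes and poly(A)-binding proteins past the filter, 5 were higher and 10 lower. Their median log2 ratio was -0.18, which became 0.031 once the trend with GC content and length was taken out. The scaffold gene CNOT1 stood at 13.8 FPKM (control) and 28.8 (si-v), log2 1.01, and the poly(A)-binding protein gene PABPC1 at 473 and 554 (0.23). CNOT9 stood at 39.2 and 22.2 (-0.79) and CNOT2 at 21.2 and 15.1 (-0.46), so subunits of 1 complex lay on opposite sides. Of 22 genes of decapping, 5′ to 3′ decay and the exosome, 9 were higher and 13 lower, with a median of -0.11 (-0.0048 on fragments per gene) and 1 past 1.5-fold, the exosome nuclease gene DIS3 at 10.6 and 5.97 (-0.74). The next lowest was EXOSC2 (-0.51), and the highest were EXOSC4 (0.54) and EDC3 (0.51). Of 13 other genes for proteins of AU-rich elements and related decay, 4 were higher and 9 lower, with a median of -0.10 that was -0.40 with the most abundant transcript only. PUM2, a Pumilio protein that recruits the deadenylase, stood at 32.1 and 13.6 (-1.18) and RC3H2 at 28.7 and 20.1 (-0.49), while the nuclease gene ZC3H12A stood at 1.37 and 2.32 (0.49) and TIA1 at 5.48 and 6.52 (0.21).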

How the data were processed

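The authors deposited 1 table of FPKM values for 39605 transcripts in 2 libraries; the header gives no unit, and FPKM was inferred because values times length add up to 71.4% (control) and 69.9% (si-v) of a full FPKM total. Per the submitters' processing notes, cutadapt, HISAT2 2.0.5 and StringTie were used on hg19; the annotation release, the strand setting and any filter are not stated in the sources used here. Transcripts were matched without version to GENCODE release 29 (99.5% matched, 179 did not), and all 19 transcripts of the 10 genes carried the same version there. That annotation is on another build and was used for symbols, lengths, sequence and overlaps. Approximate fragments are value times length over the worth of 1 fragment, the peak of low values in genes with 1 listed transcript (90.9 and 84.1). Counts of whole reads were not recovered. The trend of the ratio was a fit, over all genes past the filter, of linear and squared terms in GC content and log2 length of the most abundant transcript. Steps were checked on simulated data. The 10 genes and the gene lists were chosen with earlier results of these data known. Named were the 10 genes, all listed family relatives past the filter, and in each other list the 2 highest and 2 lowest ratios. FOS and IL6 were named in addition because of how they passed the filter. Python 3.11.15, pandas 2.3.3 and scipy 1.17.1 were used.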

Additional observations from a re-analysis of the deposited data

How the results depend on the processing

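Alternatives were a pseudocount of 0.1 or 5, no filter or one of 5 FPKM, scaling without the mitochondrial genes, centring on the median, the most abundant transcript only, fragments per gene, removal of the GC content and length trend, and a lower fold threshold. The count of the 10 genes higher by 1.5-fold was 4 in each of the 9 other than the threshold, which gave 5, and the count lower was 0 in all 10. The share of all genes higher by 1.5-fold ran from 4.10% with a pseudocount of 5 to 14.2% with the most abundant transcript only. Lower by 1.5-fold were 391 of 11046 genes and 1548 of 10784 in these 2 settings. For the lower threshold the share of all genes was not computed. The count higher by 2-fold was 2, where 2.37% of all genes were. It became 0 with a pseudocount of 5 (0.652% of all genes), without the mitochondrial genes in the scaling (2.04%) and with the trend removed (2.06%). With the most abundant transcript only it became 3 (6.33%). The cause was not tested. With the trend removed, the median of the other early response genes went from 0.19 to 0.081. That of the deadenylase and poly(A)-binding protein genes went from -0.18 to 0.031. Over all genes, calls at 1.5-fold went from 1085 higher and 984 lower to 453 and 391 with a pseudocount of 5. EGR1 and BTG2 have no value with a filter of 5 FPKM. Their depth, under 50 fragments a library, limits what can be said of them. No paired analysis was possible because each group has 1 library.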

Other observations

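The early response genes NR4A1 and NR4A2 and the family relatives DUSP2 and DUSP8 did not reach 1 FPKM in either library and so entered none of the counts; they were looked at after their values were seen. NR4A1 and NR4A2, which encode orphan nuclear receptors, stood at 0.0614 and 0.142 FPKM in the control and at 0.769 and 0.600 in the si-v library. NR4A2 rests on about 5 and 25 fragments, and NR4A1 on under 1 and about 6. The phosphatase genes DUSP2 and DUSP8 stood at 0.108 and 0.252 FPKM in the control and at 0.222 and 0.557 in the si-v library. All 4 were higher in the si-v library, on few fragments each, where 50.4% of the genes past the filter were higher. The share among genes under 1 FPKM was not computed. PAN2, of the deadenylase list, also missed the filter and lay the other way, at 0.573 FPKM (control) and 0.512 (si-v).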
